A study of Arabidopsis thaliana with 6 samples.

Results

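Cytosolic ribosomal protein genes of Arabidopsis thaliana were followed as sets of paralogs, that is, as the separate genes that encode the same ribosomal protein. The members were 45 genes given as a list of gene identifiers by their annotation, of 32833 genes in the count tables, under a rule that uses no measured value. They encode 22 proteins. Of these, 16 are represented by 2 paralogs (9 proteins) or 3 paralogs (7 proteins), 39 genes in all, and 6 by a single gene (RPL3A, RPL7B, RPL27aC, RPS8A, RPS15aA and RACK1A). Products of the small subunit came from 19 genes and products of the large subunit from 25, and RACK1A, a scaffold protein that sits on the small subunit, was the remaining one.

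The libraries came from whole seedlings of 2 genotypes with 3 libraries each. One genotype was the wild type accession Col-0, and the other was amiRNA-VQ1,10, a line with an artificial microRNA (a designed small RNA meant to lower matching transcripts) named for the genes VQ1 and VQ10. Seedlings of both genotypes were 14 days old, had grown with 1% sucrose in normoxia (21% O2) under long days (16 h light, 8 h dark) at a photon flux of 150 µmol per m2 and s, and were collected 4 h after lights on with no further treatment. The number of independent amiRNA-VQ1,10 lines and the promoter that drives the microRNA are not in the labels. The libraries of a genotype are described in the design text as independent biological replicates.

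The cytosolic ribosome has a small subunit, which reads the messenger RNA, and a large subunit, which joins amino acids. In plants nearly every ribosomal protein is encoded by a small family of genes, and the paralogs can be used to different extents in different tissues. Growing tissue is rich in transcripts of these genes, and in Arabidopsis the loss of single paralogs is known to change leaf shape or to arrest embryos.

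Each library was a 3′ RNA-seq library, in which a transcript is read near its end whatever its length, so that levels of different genes can be set side by side. Totals over genes ran from 926209 to 1329817 counts per library, and the members took 14407 to 19321 of them, 1.38% to 1.56%. Counts were found in every library for the markers of photosynthetic tissue and of root, apart from the root gene NRT2.1, which ranged from 0 to 3.50 CPM. Of the 4 seed and embryo markers OLEO1 and 2S3 had 0 counts over all libraries, which allows up to 3 counts in the sum of the libraries. CRU1 and CRU3 had 5 counts and 1 count over all libraries. VQ1 had 5, 1 and 2 counts in Col-0 and none in amiRNA-VQ1,10, and VQ10 had 1 count in Col-0 replicate 1 and 0 in the other libraries, so the genes for which the line is named give little check of the labels at this depth. The first principal component of all tested genes took 26.9% of the variance. Its values were 15.7, 8.00 and 8.96 in Col-0 and -4.94, -31.3 and 3.57 in amiRNA-VQ1,10. Each Col-0 library thus lay above each amiRNA-VQ1,10 library, and amiRNA-VQ1,10 replicate 2 stood furthest apart.

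Paralogs of a ribosomal protein can be nearly the same protein and still be counted apart, because their transcripts end differently. In the RefSeq annotation of TAIR10.1 the coding sequences of the 30 pairs of paralogs were 72.1% to 99.1% identical (median 85.1%), whereas their 3′ untranslated regions were 37.6% to 61.5% identical (median 45.9%). The proteins of 4 pairs were identical, namely the 3 pairs among RPS18A, RPS18B and RPS18C, and RPL9C with RPL9B. The longest run of bases shared by the last 300 transcript bases of a pair was 8 to 29 bases. For 45 of 45 members, none of the 251 windows of 50 bases in the last 300 occurred a second time in the genome on either strand. Only exact matches were counted. A window across a splice junction has no match at its own gene, so a single copy elsewhere would be missed. The last 60 coding bases of the S18 and L9 genes are shown because these sets hold the pairs with identical proteins. RPL9D is shown beside them, although its protein is 88.7% identical to those of RPL9C and RPL9B. Capitals mark the positions at which the sequences of a protein are not all the same, 9 positions for S18 and 8 for L9.
RPS18A: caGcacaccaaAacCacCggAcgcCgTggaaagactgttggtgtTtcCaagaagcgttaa
RPS18B: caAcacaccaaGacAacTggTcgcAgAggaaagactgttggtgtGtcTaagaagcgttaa
RPS18C: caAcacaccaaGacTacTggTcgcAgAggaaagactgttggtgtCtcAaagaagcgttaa
RPL9C: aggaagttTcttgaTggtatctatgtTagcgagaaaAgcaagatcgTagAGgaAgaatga
RPL9B: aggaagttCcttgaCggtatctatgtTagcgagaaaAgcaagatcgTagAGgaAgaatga
RPL9D: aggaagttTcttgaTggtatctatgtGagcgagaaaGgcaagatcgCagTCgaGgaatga

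RPS18A, RPS18B and RPS18C encode the same protein of the small subunit head with different codons, and the changes in their last coding bases leave every residue as it was. RPL9C and RPL9B differ at 2 of the 8 marked positions, and RPL9D carries the other changes. The sources used here do not give the read length or the rule for reads that match several genes, so the share of reads lost between RPL9C and RPL9B was not measured. Of the 45 members, 10 overlap another annotated gene, 7 of them on the opposite strand and 3 on the same strand. For RPS18C, RPL24A, RPL8C, RPSaA and RPP0A the overlap reaches into the last 300 bases. Whether the counting used strand is not given, so their counts may hold reads of the overlapping gene or lack reads set aside. The 3 same-strand overlaps are those of RPS13A, RPSaB and RPP0B, and lie outside their last 300 bases. Strand cannot separate reads there, so these counts may also hold or lack reads of the overlap.

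The members differed widely in level, between proteins and between paralogs of a protein. On the scale of CPM with TMM scaling (counts per library size, corrected for composition), the means over the 6 libraries ran from 9.61 CPM for RPSaB to 1114 CPM for RPP0B, with a median of 289 CPM. Means above 100 CPM were found for 41 of 45 members, against a median of 29.1 CPM over the 12701 genes tested. The 4 members below 100 CPM were RPL8C, RPL10B, RPP0A and RPSaB, each of them a minor paralog of a protein with a strongly expressed one. Over the 6 libraries, both genotypes together, the coefficient of variation was below 10% for 36 of 45 members. It was under 1.5 times that of counting error alone for 29 of 45. The shares of all tested genes within these limits were not computed.

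**Figure D1:**
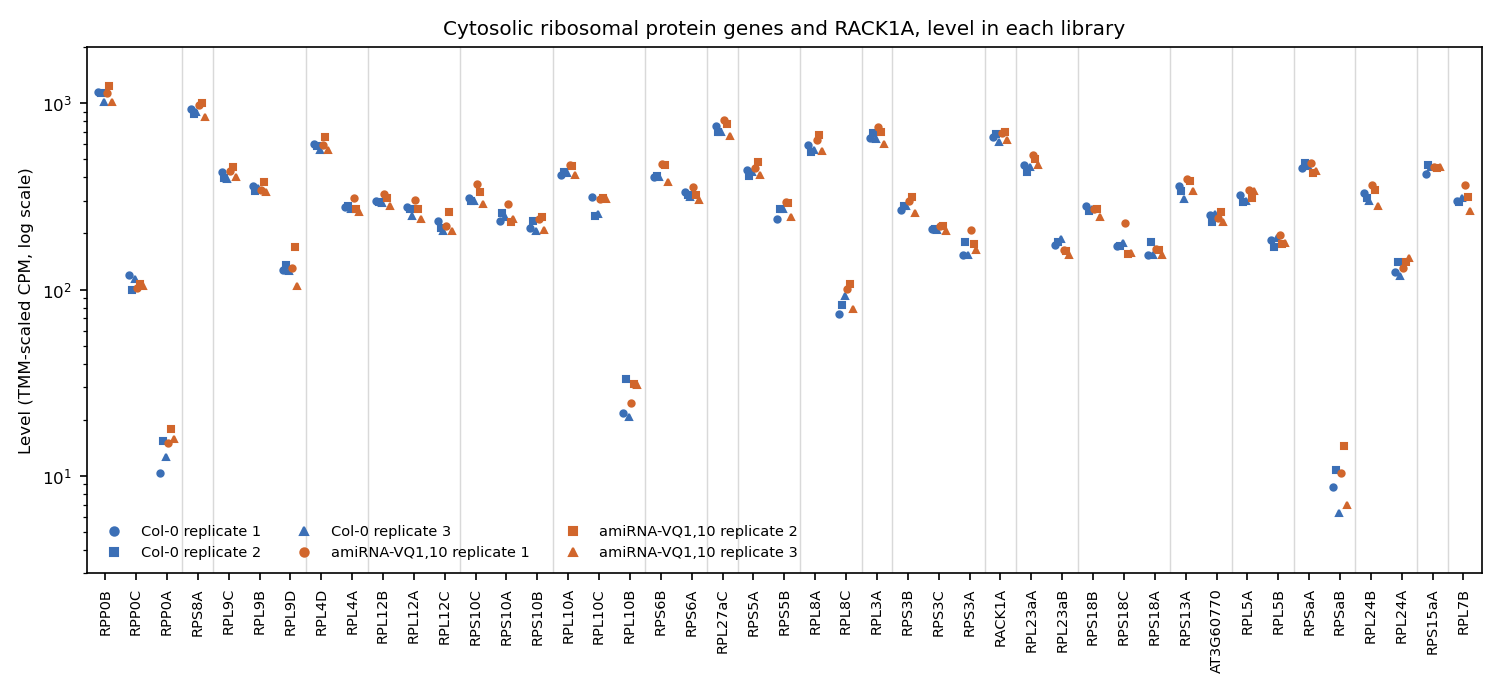
Level of each of the 45 genes in each of the 6 libraries (TMM-scaled CPM, log axis), grouped by protein between grey lines, with proteins ordered by their summed level. The minor paralogs RPL8C, RPL10B, RPP0A and RPSaB stand below 100 CPM in the mean, while RPP0B lies between 1008 and 1240 CPM.

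RPP0B (AT3G09200), which encodes P0, the protein that anchors the flexible stalk on which translation factors dock, had the highest level. Its levels were 1146, 1137 and 1018 CPM in Col-0 and 1135, 1240 and 1008 CPM in amiRNA-VQ1,10. RPS8A (AT5G20290), a protein of the small subunit, followed with 932, 872 and 899 CPM in Col-0 and 974, 1003 and 846 CPM in amiRNA-VQ1,10. The ranges of RPP0B and RPS8A over the 6 libraries did not overlap. Next came RPL27aC (AT1G70600; 736 ± 54.9 CPM, SD, n = 6), RPL3A (AT1G43170; 673 ± 49.8 CPM), whose product reaches towards the peptidyl transferase centre, and RACK1A (AT1G18080; 665 ± 34.1 CPM). RPL27aC was above both others in 6 of 6 libraries, although the ranges overlapped, and RPL3A and RACK1A lay within each other's spread. RPS15aA (AT1G07770) stood at 450 ± 17.5 CPM and RPL7B (AT2G01250) at 307 ± 32.5 CPM (SD, n = 6). RPS15aA varied little, between 416 and 467 CPM.

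The 30 pairs of paralogs were then compared within each library by the log2 ratio of their counts, which needs no scaling between libraries. Of the 30 pairs 28 differed in level by an exact sign-flip permutation test over the 6 libraries (two-sided, p = 0.0312, the smallest that 6 libraries can give, adjusted p = 0.0335 by Benjamini-Hochberg over 30 pairs). In each of these 28 pairs the same paralog was higher in 6 of 6 libraries. Among tested pairs of listed cytosolic ribosomal protein genes outside these 30, 151 of 159 (95.0%) passed the same test. Such a pair can join a member with a paralog outside the members. A difference between paralogs was thus common among the listed pairs. The test asks only whether a ratio keeps its direction over the libraries, however small it is. Pairs of unrelated genes were not run, so whether the rate is particular to paralogs was not tested. The larger value was 1.09 to 75.2 times the smaller (median 1.64), with at least 2-fold in 12 pairs and at least 10-fold in 5. Differences in priming or in the annotated transcript end between paralogs also enter such ratios and were not tested.

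**Figure D2:**
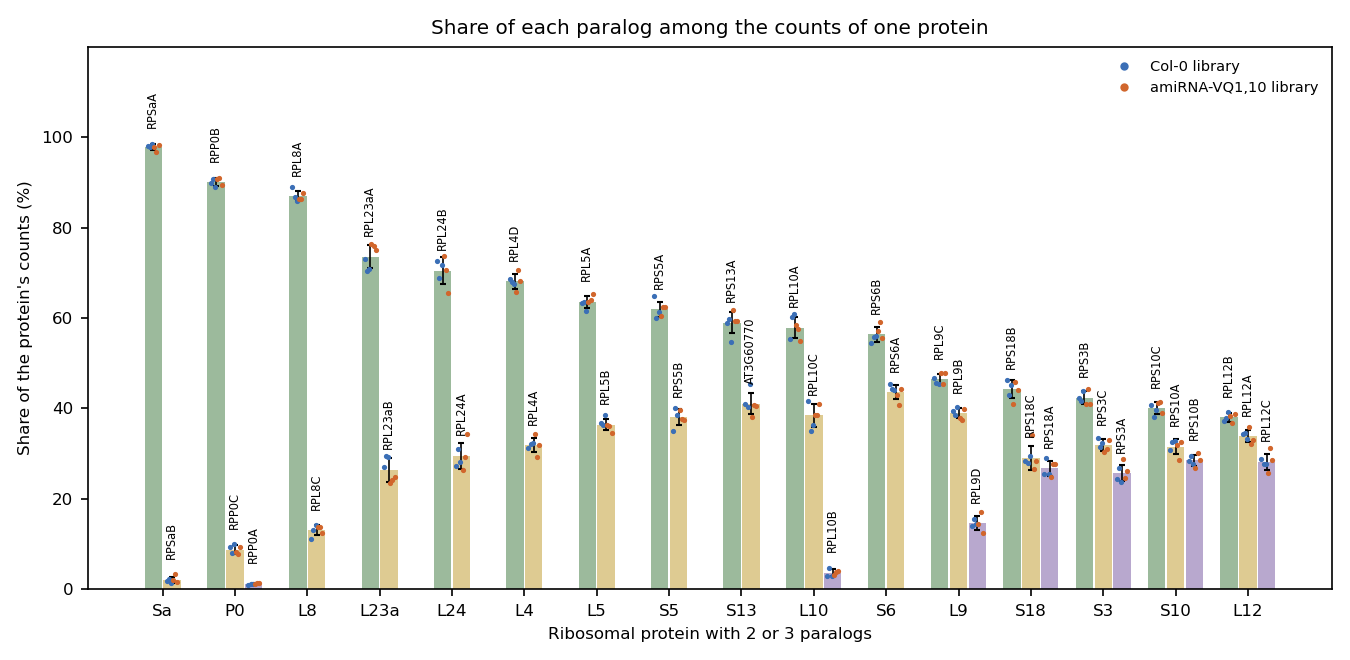
Share of each paralog in the counts of its protein, summed over member paralogs only (%), for the 16 proteins with 2 or 3 paralogs among the members. Bars give the mean of 6 libraries with the SD, and points give the libraries, in blue for Col-0 and orange for amiRNA-VQ1,10. RPSaA, RPP0B and RPL8A each hold over 85% of their protein's counts, whereas the 3 paralogs of S18, S3, S10 and L12 share theirs.

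A single paralog supplied most counts of P0, Sa and L8 among the members. Shares here and below are taken over the member paralogs of a protein, and paralogs outside the 45 genes are left out. RPP0B held 89.8%, 90.8% and 88.9% of the P0 counts in Col-0 and 90.7%, 90.9% and 89.4% in amiRNA-VQ1,10. RPP0C (AT3G11250) held 8.75% ± 0.898 and RPP0A (AT2G40010) 1.18% ± 0.201 (SD, n = 6). RPP0A had only 12, 20 and 14 counts in Col-0 and 16, 16 and 18 counts in amiRNA-VQ1,10, and RPP0B was 75.2-fold higher. Such few counts leave the share of RPP0A known only roughly, and its transcript end overlaps a gene on the opposite strand. RPP0B overlaps another gene on the same strand, away from its transcript end. The P0 proteins of RPP0A and RPP0B were 82.2% identical, while those of RPP0B and RPP0C were 96.0% identical.

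RPSaA (AT1G72370) encodes the Sa protein of the small subunit, the plant relative of the animal laminin receptor precursor. It held 98.1%, 97.8% and 98.6% of the Sa counts in Col-0 and 97.9%, 96.7% and 98.4% in amiRNA-VQ1,10, which made it 46.8-fold higher than RPSaB (AT3G04770). RPSaB had 10, 14 and 7 counts in Col-0 and 11, 13 and 8 counts in amiRNA-VQ1,10. These are the lowest counts among the members. The spread of RPSaB over the libraries (a coefficient of variation of 30.8%) was as large as counting error alone gives (30.9%). RPSaB also overlaps another gene on the same strand. RPL8A (AT2G18020), a protein near the peptidyl transferase centre, held 87.0% ± 1.11 of the L8 counts (SD, n = 6) and was 6.67-fold higher than RPL8C (AT4G36130).

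L10, the protein that in Arabidopsis is a target of the receptor kinase NIK1 in antiviral signalling, had 2 paralogs at high levels and 1 at a low level. RPL10A (AT1G14320) held 57.9% ± 2.41, RPL10C (AT1G66580) 38.5% ± 2.57 and RPL10B (AT1G26910) 3.61% ± 0.733 of its counts (SD, n = 6). RPL10A was 16.0-fold and RPL10C 10.7-fold higher than RPL10B. The level of RPL10B was 21.8, 33.1 and 20.8 CPM in Col-0 and 24.5, 31.2 and 30.6 CPM in amiRNA-VQ1,10, with ranges that overlapped. The L10 proteins were 94.1% to 96.8% identical among the 3 paralogs.

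Other proteins of the large subunit drew on a major and a minor paralog. L23a lies at the mouth of the exit tunnel, and RPL23aA (AT2G39460) held 73.6% ± 2.60 of its counts against RPL23aB (AT3G55280). In L24, RPL24B (AT3G53020), known as SHORT VALVE1 for its role in gynoecium patterning and in reinitiation of translation, held 70.5% ± 2.94 against RPL24A (AT2G36620). RPL4D (AT5G02870), whose product lines the exit tunnel, held 68.1% ± 1.61 against RPL4A (AT3G09630), and RPL5A (AT3G25520), a partner of the 5S rRNA, held 63.6% ± 1.27 against RPL5B (AT5G39740). The minor paralogs of these proteins still stood between 133 and 278 CPM in the mean, above the median tested gene.

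L9 and L12 were shared by 3 paralogs. RPL9C (AT1G33140), RPL9B (AT1G33120) and RPL9D (AT4G10450) held 46.5% ± 1.12, 38.9% ± 1.08 and 14.6% ± 1.54 of the L9 counts (SD, n = 6). RPL9C and RPL9B, which encode identical proteins, differed by 1.19-fold, and the direction was the same in 6 of 6 libraries. RPL12B (AT3G53430), RPL12A (AT2G37190) and RPL12C (AT5G60670), which encode the protein at the base of the stalk, held 38% ± 0.928, 33.8% ± 1.31 and 28.2% ± 1.77. Each of the 3 L12 pairs differed, by 1.12-fold to 1.35-fold.

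In the small subunit, S5, S13 and S6 each drew on a pair of paralogs. RPS5A (AT3G11940), the paralog known for its strong expression in dividing cells, held 61.9% ± 1.76 of the S5 counts against RPS5B (AT2G37270). RPS13A (AT4G00100, also known as POINTED FIRST LEAF 2) held 59.0% ± 2.35 against AT3G60770, which encodes a protein that differs from it at 1 residue. RPS6B (AT5G10360) held 56.4% ± 1.62 against RPS6A (AT4G31700). S6 is phosphorylated by a kinase that acts downstream of TOR, the growth regulator. Shares are means with the SD over 6 libraries.

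The remaining proteins of the small subunit had 3 paralogs with no dominant one. RPS18B (AT1G34030), RPS18C (AT4G09800) and RPS18A (AT1G22780, known as POINTED FIRST LEAF) held 44.2% ± 2.0, 29.1% ± 2.67 and 26.7% ± 1.69 of the S18 counts (SD, n = 6). RPS18A and RPS18C were 1 of the 2 pairs that did not pass, with a 1.09-fold difference and a log2 ratio from -0.46 to 0.06 over the libraries (exact sign-flip p = 0.219). The highest library of RPS18C was amiRNA-VQ1,10 replicate 1, with 227 CPM against 156 to 177 CPM in the others. RPS10C (AT5G52650), RPS10A (AT4G25740) and RPS10B (AT5G41520) held 40% ± 1.34, 31.5% ± 1.64 and 28.5% ± 1.17 of the S10 counts. RPS10A and RPS10B, the second pair that did not pass, had a log2 ratio from -0.08 to 0.25 (1.11-fold, exact sign-flip p = 0.0625, adjusted p = 0.0647). S3 lines the entry channel of the messenger RNA, and RPS3B (AT3G53870), RPS3C (AT5G35530) and RPS3A (AT2G31610) held 42.4% ± 1.44, 31.9% ± 1.24 and 25.7% ± 1.86 of its counts.

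When paralogs were added up, the proteins lay closer together than the single genes did. Adding a minor paralog to a major one lifts the low end by arithmetic, so the narrower range is no result about supply. The summed level per protein ran from 307 CPM for L7, with 1 member gene, to 1236 CPM for P0. The proteins with 3 paralogs reached 605 ± 35.9 CPM for S18, 668 ± 41.6 CPM for S3, 749 ± 43.8 CPM for L10, 789 ± 58.4 CPM for S10, 792 ± 48.6 CPM for L12 and 900 ± 56.9 CPM for L9 (SD, n = 6). RPS8A alone gave 921 ± 60.2 CPM. For proteins with further paralogs outside the 45 genes these sums are not the whole supply of the protein.

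Ribosomal protein promoters in plants are known for 2 short motifs, the telo box AAACCCTA and the site II element, searched as TGGGCC and TGGGCT. Both strands of the 250 bases before each annotated gene start (RefSeq, TAIR10.1) were searched, and each match was counted once per strand and position. A site II element stood before 31 of 45 members (68.9%), before 122 of 178 other listed cytosolic ribosomal protein genes (68.5%) and before 5264 of 27444 protein-coding genes of the nucleus (19.2%). The telo box stood before 4 members (8.89%), 40 of the other ribosomal protein genes (22.5%) and 1232 of all genes (4.49%). Neither motif was found in this window for 12 members (26.7%), 48 of the other ribosomal protein genes (27%) and 21322 of all genes (77.7%). Among the 16 proteins with paralogs the highest paralog had more site II matches than the lowest in 8, as many in 2 and fewer in 6. Windows that reach into a neighbouring gene were not set apart. The 2 motif counts are descriptions of letters and say nothing on binding.

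The upstream sequences of an L24 pair and a P0 pair are shown because their order of motif counts goes opposite ways. RPL24B, the higher of its pair by 2.40-fold, has 5 site II matches and RPL24A has 0, whereas RPP0B has 1 match and RPP0A, 75.2-fold lower, has 2. The windows are chr3:19662026-19662275 (minus strand) for RPL24B, chr2:15352014-15352263 (minus strand) for RPL24A, chr3:2825242-2825491 (minus strand) for RPP0B and chr2:16710773-16711022 (minus strand) for RPP0A, in TAIR10.1. Each is written 5′ to 3′ along the gene and ends at the base before the annotated start. RPP0B overlaps another annotated gene on the same strand, outside its last 300 bases, so its window may hold transcribed bases of that gene. Capitals mark site II matches on either strand.
RPL24B: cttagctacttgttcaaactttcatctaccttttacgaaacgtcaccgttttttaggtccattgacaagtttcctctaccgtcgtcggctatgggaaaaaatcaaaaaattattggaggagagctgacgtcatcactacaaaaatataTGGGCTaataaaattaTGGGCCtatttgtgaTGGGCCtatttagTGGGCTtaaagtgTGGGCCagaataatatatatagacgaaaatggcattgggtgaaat
RPL24A: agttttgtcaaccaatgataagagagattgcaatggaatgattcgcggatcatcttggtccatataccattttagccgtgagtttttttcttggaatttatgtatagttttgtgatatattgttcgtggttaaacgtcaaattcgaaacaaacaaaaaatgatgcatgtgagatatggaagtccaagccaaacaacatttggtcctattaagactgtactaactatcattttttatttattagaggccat
RPP0B: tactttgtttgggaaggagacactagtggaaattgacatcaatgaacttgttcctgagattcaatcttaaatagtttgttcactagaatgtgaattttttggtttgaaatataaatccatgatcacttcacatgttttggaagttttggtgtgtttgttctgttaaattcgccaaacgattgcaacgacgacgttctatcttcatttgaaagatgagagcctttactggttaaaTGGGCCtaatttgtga
RPP0A: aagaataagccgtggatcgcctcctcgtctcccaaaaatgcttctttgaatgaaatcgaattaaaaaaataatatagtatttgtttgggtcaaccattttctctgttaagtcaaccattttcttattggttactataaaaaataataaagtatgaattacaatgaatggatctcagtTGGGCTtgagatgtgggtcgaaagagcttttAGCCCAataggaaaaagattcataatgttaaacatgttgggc

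The 2 genotypes were compared to ask whether ribosomal protein transcripts differ in amiRNA-VQ1,10. No member passed the threshold (0 of 45, adjusted p under 0.05 in edgeR's quasi-likelihood test with Benjamini-Hochberg adjustment over 12701 genes), where 0.102% of all tested genes did, 0.0236% higher and 0.0787% lower. At an unadjusted p under 0.05 there were also 0 members, against 6.02% of all tested genes, and DESeq2 and limma-voom called 0 members too. All 45 members were tested. Their log2 fold changes, amiRNA-VQ1,10 over Col-0, ran from -0.18 for RPL23aB to 0.32 for RPP0A, with a median of 0.06 against 0.00 over all tested genes. The small subunit members had a median of 0.06 and the large subunit members one of 0.07.

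The depth of these genes gave narrow limits. For 42 of 45 members the 95% interval of the fold change lay inside 1.5-fold in either direction, which held for 47.4% of all tested genes. The 3 exceptions were RPL10B (-0.30 to 0.63 on the log2 scale), RPP0A (-0.26 to 0.89) and RPSaB (-0.52 to 1.00), the members with the fewest counts. For RPP0B, the highest member, the log2 fold change was 0.03, with an interval from -0.13 to 0.19. In whole seedlings fewer cells of a type and less RNA per cell cannot be told apart, so these limits apply to the seedling as a whole.

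**Figure D3:**
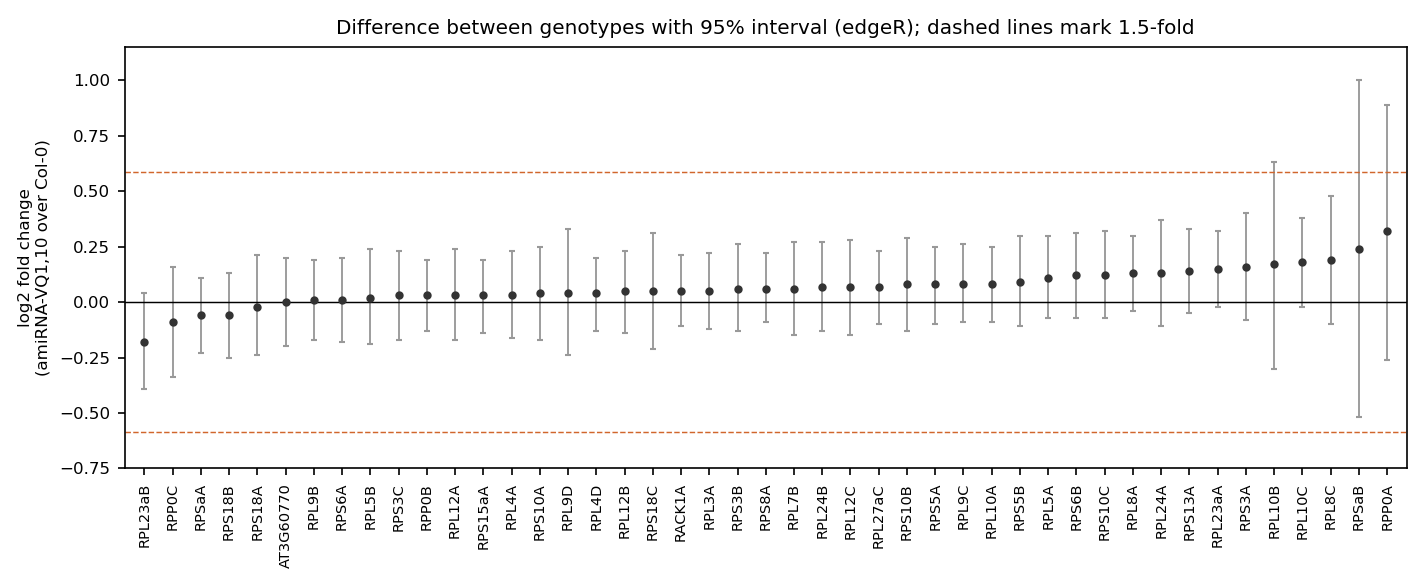
Log2 fold change of each of the 45 genes, amiRNA-VQ1,10 over Col-0, with the 95% interval from edgeR, ordered by value, and dashed lines at 1.5-fold. Points lie between -0.18 and 0.32, and only the intervals of RPL10B, RPP0A and RPSaB cross a dashed line.

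The 8 members with the smallest p all had adjusted p of 0.857 or more by edgeR. RPL23aA stood at 449 ± 20.5 CPM in Col-0 and 499 ± 32.4 CPM in amiRNA-VQ1,10 (SD, n = 3), and its log2 fold change was 0.15 ± 0.08 (SE, edgeR adjusted p = 0.857). RPL10C had 312, 247 and 253 CPM in Col-0 and 307, 308 and 305 CPM in amiRNA-VQ1,10, a log2 fold change of 0.18 ± 0.10 (edgeR adjusted p = 0.857). The 3 amiRNA-VQ1,10 libraries of RPL10C were nearly equal and lay inside the range of Col-0. RPL8A, RPS13A and RPS6B had log2 fold changes of 0.13 ± 0.08, 0.14 ± 0.09 and 0.12 ± 0.09, and RPS3A and RPL8C had 0.16 ± 0.12 and 0.19 ± 0.14 (SE, edgeR adjusted p from 0.894 to 0.919). In these 5 genes the ranges of the genotypes overlapped. RPL23aB was the only member whose CPM ranges did not overlap (1 of 45, against 10.4% of all tested genes, 5.30% higher and 5.10% lower), with 173, 179 and 186 CPM in Col-0 and 162, 160 and 154 CPM in amiRNA-VQ1,10. Its log2 fold change was -0.18 ± 0.10 (SE, edgeR adjusted p = 0.860).

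Although single members did not pass, 39 of 45 log2 fold changes were above 0, against 50.7% of all tested genes. The members stood high in 2 of the 3 amiRNA-VQ1,10 libraries and low in the other one. Members above their own mean over the 6 libraries numbered 19, 18 and 12 in Col-0 replicates 1 to 3, and 37, 35 and 6 in those of amiRNA-VQ1,10. The median deviation of the members from their own mean, on the log2 scale, was -0.01, -0.02 and -0.06 in Col-0 and 0.10, 0.09 and -0.09 in amiRNA-VQ1,10. Replicates 1 and 2 of amiRNA-VQ1,10 were thus the highest of the 6 libraries and replicate 3 the lowest. Without replicate 3 of amiRNA-VQ1,10 the median log2 fold change of the members was 0.13, without replicate 1 it was 0.03 and without replicate 2 it was 0.04, and 0 members passed in each of these fits.

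**Figure D4:**
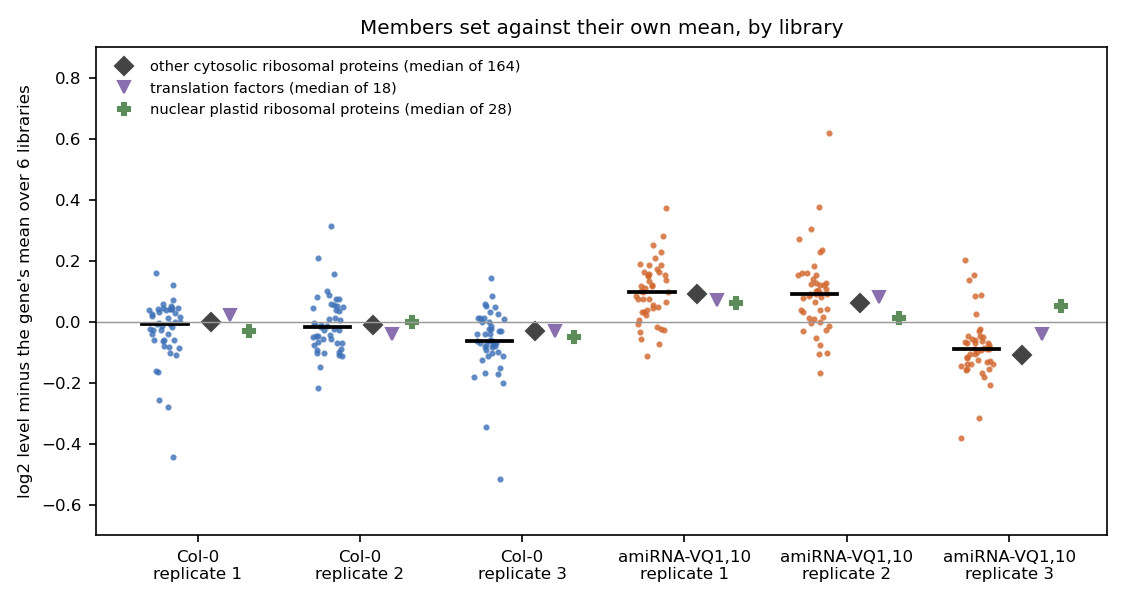
Difference between a gene's log2 level in a library and its mean over the 6 libraries, with a point for each of the 45 genes and a black line at their median, beside the medians of 3 other lists. The members and the other cytosolic ribosomal protein genes stand above 0 in amiRNA-VQ1,10 replicates 1 and 2 and below 0 in replicate 3, where the plastid ribosomal proteins stand above 0.

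The other cytosolic ribosomal protein genes had a like order of libraries. The medians of the 164 tested ones were -0.00, -0.01 and -0.03 in Col-0 and 0.09, 0.06 and -0.11 in amiRNA-VQ1,10. The 18 tested translation factors, which bring messenger and transfer RNA to the ribosome, had medians of 0.02, -0.04 and -0.03 in Col-0 and 0.07, 0.08 and -0.04 in amiRNA-VQ1,10. The 28 nuclear genes for plastid ribosomal proteins, which serve the separate ribosome of the chloroplast, had medians of -0.03, 0.00 and -0.05 in Col-0 and 0.06, 0.01 and 0.05 in amiRNA-VQ1,10. In replicate 3 of amiRNA-VQ1,10 the medians were thus below 0 for the lists of cytosolic translation and above 0 for the plastid ribosome.

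Markers of tissues moved between libraries as well. The 9 tested markers of dividing cells had median deviations of -0.06, 0.16 and -0.07 in Col-0 and 0.17, 0.11 and -0.11 in amiRNA-VQ1,10, and their summed level was 359 to 420 CPM in Col-0 and 335 to 421 CPM in amiRNA-VQ1,10. The 5 tested root markers had medians of 0.22, 0.02 and -0.04 in Col-0 and -0.03, 0.29 and -0.37 in amiRNA-VQ1,10, with sums of 1100 to 1249 CPM and 1122 to 1600 CPM. The 6 markers of photosynthetic shoot summed to 16757 to 17368 CPM in Col-0 and to 18044 to 19357 CPM in amiRNA-VQ1,10, ranges that did not overlap, and 6 of 6 had a log2 fold change above 0 with 0 past the threshold. An unadjusted p under 0.05 was found for 3 of these 6 and for 1 of the 5 root markers, against 6.02% of all tested genes. By these medians dividing cell and root markers were both lowest in amiRNA-VQ1,10 replicate 3, the library in which the members were lowest. The order of the other libraries did not match throughout. Dividing cell markers stood at 0.16 in Col-0 replicate 2, where the members stood at -0.02. Root markers stood at -0.03 in amiRNA-VQ1,10 replicate 1, where the members were highest (0.10). The part of tissue composition in the values of the members was not tested.

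Other genes of ribosome supply gave no call either. Of the 164 other cytosolic ribosomal protein genes tested, 0 rose and 0 fell (edgeR, as above), 4 had an unadjusted p under 0.05, and 106 of 164 were above 0 with a median of 0.03. For ribosome biogenesis (16 tested genes), translation factors (18), TOR signalling (5) and plastid ribosomal proteins (28) the counts past the threshold were 0, with medians of 0.04, 0.05, 0.01 and 0.05. An unadjusted p under 0.05 was found for 2 plastid ribosomal protein genes and for 0 genes of the other 3 lists.

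The balance between paralogs was compared between genotypes in a separate test, since a switch of paralogs could leave the sum of a protein unchanged. Of the 30 pairs 0 passed (limma on log2 ratios of counts, Benjamini-Hochberg adjusted p under 0.05 over 189 pairs of all listed cytosolic ribosomal protein genes), where 0% of the 189 pairs passed. At an unadjusted p under 0.05 there was 1 of 30, against 4.23% of the 189 pairs. Ranges of the log2 ratio did not overlap in 2 of 30, against 6.35% of the 189. These 2 were RPL23aA with RPL23aB, and RPL9C with RPL9B.

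The pair RPL23aA and RPL23aB had the smallest p. The log2 ratio of RPL23aA over RPL23aB was 1.43, 1.26 and 1.28 in Col-0 and 1.70, 1.65 and 1.59 in amiRNA-VQ1,10, so that each amiRNA-VQ1,10 library lay above each Col-0 library. RPL23aA held 73.0%, 70.5% and 70.8% of the L23a counts in Col-0 and 76.5%, 75.9% and 75.1% in amiRNA-VQ1,10. The ratio differed by 0.33 ± 0.12 on the log2 scale (SE, n = 3 per genotype, 95% interval 0.09 to 0.56), with an unadjusted limma p of 0.00618 and an adjusted p of 0.632. By a two-sided exact permutation test of this pair p was 0.1, the lowest value possible with 3 libraries against 3. The difference therefore did not pass over the pairs tested.

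**Figure D5:**
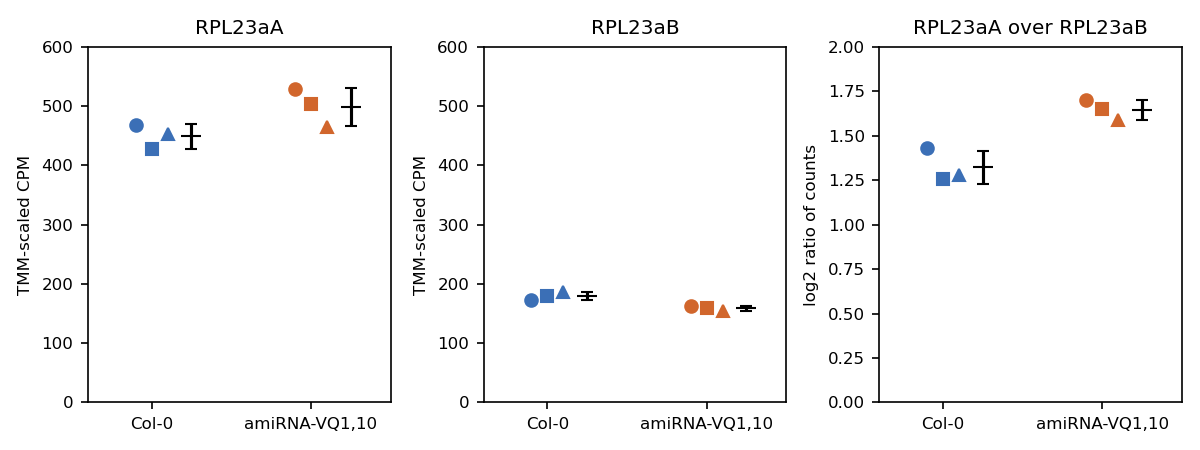
Levels of RPL23aA and RPL23aB (TMM-scaled CPM) and the log2 ratio of their counts in the 3 libraries of each genotype, with the mean and SD in black. The ratio lies between 1.26 and 1.43 in Col-0 and between 1.59 and 1.70 in amiRNA-VQ1,10.

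In Arabidopsis RPL23aA is the paralog known to be needed for normal development, while loss of RPL23aB is known to be tolerated. The proteins of the pair differ at 8 residues (94.8% identity). The 3′ untranslated regions are 204 bases long in RPL23aA and 219 in RPL23aB, and whether the counted reads reach the coding bases is not known. The last 60 coding bases are shown with their 8 differing positions in capitals.
RPL23aA: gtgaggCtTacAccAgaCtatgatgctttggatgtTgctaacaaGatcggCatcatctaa
RPL23aB: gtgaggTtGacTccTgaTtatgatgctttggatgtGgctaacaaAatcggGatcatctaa

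The summed L23a level was 641, 606 and 639 CPM in Col-0 and 691, 664 and 619 CPM in amiRNA-VQ1,10, with ranges that overlapped. RPL9C over RPL9B, the second pair with separate ranges, had log2 ratios of 0.25, 0.24 and 0.17 in Col-0 and 0.34, 0.28 and 0.26 in amiRNA-VQ1,10. Their difference of 0.07 ± 0.08 (SE) was smaller than its error (95% interval -0.09 to 0.23). The next smallest p belonged to AT3G60770 over RPS13A (-0.14 ± 0.10), RPP0A over RPP0C (0.43 ± 0.32) and RPS6A over RPS6B (-0.11 ± 0.09), each with a limma adjusted p of 0.999.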

How the data were processed

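The authors deposited a table of raw, unscaled gene counts for each library. STAR, HISAT2 2.0.4 and DESeq2 are named with build TAIR10 in the submitters' processing notes, without their roles. Molecular identifiers of 6 bp were part of the primers, per the labels. Not given in the sources used here are the counting program, its strand setting and any collapsing of identifiers. Entries that name no gene (reads outside genes 3.79% to 4.07%, in more than 1 gene 0.103% to 0.109%, with more than 1 alignment 4.40% to 5.45%) stayed out of totals and tests. A count of 0 allows up to 3 counts, for counting error only.

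Genotypes were compared with edgeR 4.0.16 (quasi-likelihood test, TMM, filterByExpr with a minimum count of 10 and total of 15, Benjamini-Hochberg over 12701 genes) in R 4.3.3. Standard errors and intervals of log2 fold changes were derived from the F statistic. Log2 ratios of paralogs used counts plus 0.5, tested by exact sign flips over the 6 libraries for level and by limma 3.58.1 with a variance trend for balance. The edgeR and limma tests were also run on simulated counts with known changes, and the outcome is not given here. Alternatives were other scalings, filters and pseudocounts, limma-voom, DESeq2 1.42.0, a block for the replicate number, and each library left out. Same-numbered libraries of the genotypes did not deviate together (correlations -0.01, -0.02 and -0.03), so no pairing was used. Replicate libraries differed by more than sampling noise (chi-square per degree of freedom 1.24 to 1.58).

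The members, the lists and the tests were chosen with earlier results of these data known, although the rule for the members uses only their annotation. All 45 members may be named for levels and ratios. Log2 fold changes with SE are given for members past the threshold and otherwise for the 8 with the smallest p, and the balance likewise for 4 pairs. Values for other members are given where the text needs their interval. Paralog letters are those of the RefSeq table for 22 members and of the usual Arabidopsis naming for the rest, and AT3G60770 is given by its identifier. Sequences and annotation are those of RefSeq (TAIR10.1). The count tables hold no coordinates. Of 32833 identifiers 32548 matched the RefSeq table, and 45 of 45 members did. Identities came from global alignments in Biopython 1.88, over the pair of annotated coding sequences with the highest identity and the 3′ untranslated region of the first transcript.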

Additional observations from a re-analysis of the deposited data

How the results depend on the processing

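The members past the threshold between genotypes numbered 0 in each of the 13 alternatives run, and no log2 fold change of the 8 named members changed sign. When a library was left out, these values ran from 0.05 to 0.25 for RPS3A, 0.11 to 0.32 for RPL8C, 0.12 to 0.29 for RPL10C, 0.06 to 0.22 for RPS6B, 0.08 to 0.20 for RPS13A, 0.07 to 0.20 for RPL8A, 0.11 to 0.20 for RPL23aA and -0.20 to -0.15 for RPL23aB, with adjusted p of 0.487 or more. The count over all genes was 13, and it was 92 with no filter, 6 with a strict filter of 50 counts in 3 libraries, 6 by DESeq2, 8 by limma-voom, and 10 to 37 when a library was left out (37 without Col-0 replicate 2 and 22 without amiRNA-VQ1,10 replicate 3). With the replicate number as a block it was 16, with 0 members and 0 of 189 pairs past the threshold, and the block changed no call of a member or pair. A mean of at least 10 counts asked of each paralog removed none of the 30 pairs, so it only repeated the main test of levels. Pairs of paralogs that differ in level numbered 28 with pseudocounts of 1 and 2. They numbered 0 whichever library was left out, because 5 libraries cannot give an exact p under 0.0625, and 28 to 29 pairs then kept one direction in the libraries used. The balance of pairs gave 0 past the threshold in each alternative, and the difference for RPL23aA over RPL23aB was 0.29 to 0.38, with adjusted p from 0.217 to 0.995. When a library was left out, the difference ran from -0.20 to -0.05 for AT3G60770 over RPS13A, from 0.24 to 0.65 for RPP0A over RPP0C and from -0.16 to -0.05 for RPS6A over RPS6B. Depth limits RPSaB, RPP0A and RPL10B, which the strict filter removes (42 members left). Arms left with 2 libraries share the estimate of spread with the other genotype.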
